A study of Mus musculus with 10 samples.

Results

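Jugular and nodose neurons that had responded to capsaicin were compared across all genes in 4 pools of single mouse vagal neurons, 2 per ganglion, out of the 10 pools of the series. The 4 pools were taken by their labels. All came from C57BL/6 wild-type mice, whose age and number the labels and the methods do not give. Cells from the rostral tip (jugular) or the caudal tip (nodose) of the fused ganglion were dissociated and loaded with a calcium dye, and were then given α,β-methylene ATP (10 μM), an agonist of P2X receptors, and capsaicin (1 μM), the agonist of TRPV1. Jugular pools held 15 and 16 neurons that responded to capsaicin and not to α,β-methylene ATP, and nodose pools held 14 and 15 neurons that responded to both. The ganglia therefore differ by position and also by the P2X response, and these cannot be told apart. Cells were picked up to 5 at a time into a pipette and lysed, and their mRNA was copied by oligo-dT priming, amplified by PCR (ultra-low input kit) and read as 50 bp pairs. A further 4 pools, of Trpv1-tdTomato-positive neurons from the same ends of the ganglion, are used below for comparison.

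The vagus nerve carries sensory fibers from the airways, heart and gut, and their cell bodies lie in these ganglia. Nodose neurons arise from the epibranchial placodes and share regulators with other visceral neurons, whereas jugular neurons arise from the neural crest, as do the neurons of the dorsal root ganglia. Neurons of both ganglia that carry TRPV1 are mostly unmyelinated C-fibers, which respond to noxious and inflammatory stimuli and can release peptides such as substance P.

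Counts on genes totalled 22411377 and 30810863 for nodose replicates 1 and 2 and 22173211 and 17666710 for the jugular ones. Of 24421 gene rows, 12259 were at 0 in all 4. Values are given in CPM (counts per 1000000 after size factor scaling), and each pair lists replicate 1 and then replicate 2. Where 2 pairs are set against each other, the nodose pair comes first. At these depths 3 counts, taken as the floor, were 0.109 to 0.122 CPM. Folds by the means are given only where the low group had more than 3 counts in all, and the largest rest on few counts. The floor of 3 counts covers counting error only. The labels do not say whether the pools of a group came from separate animals, so p-values measure only the spread between pools.

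That spread was wide (see the plot of replicate against replicate). In the nodose group 6301 genes reached 10 CPM in at least 1 pool, and 44.6% of them (2811 genes) were under 1 CPM in the other pool. The jugular group was closer, with 27.1% (2077 of 7658 genes). Among genes at 10 CPM in both pools of a group, the median ratio between replicates was 0.94 on the log2 scale in nodose (2901 genes) and 0.71 in jugular (4468 genes). The second nodose pool also stood apart by the 100 most abundant genes, which took 47.6% of its counts against 30.7% to 35.1% in the other 3 pools. Over 5017 genes at 10 CPM in both pools of a group, Pearson's r of log2(CPM + 1) was 0.553 between the nodose pools, 0.721 between the jugular pools and 0.316 to 0.367 between pools of different ganglia. This r is across genes, which are not independent, and the gene filter itself draws pools of a group together.

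**Figure D1:**
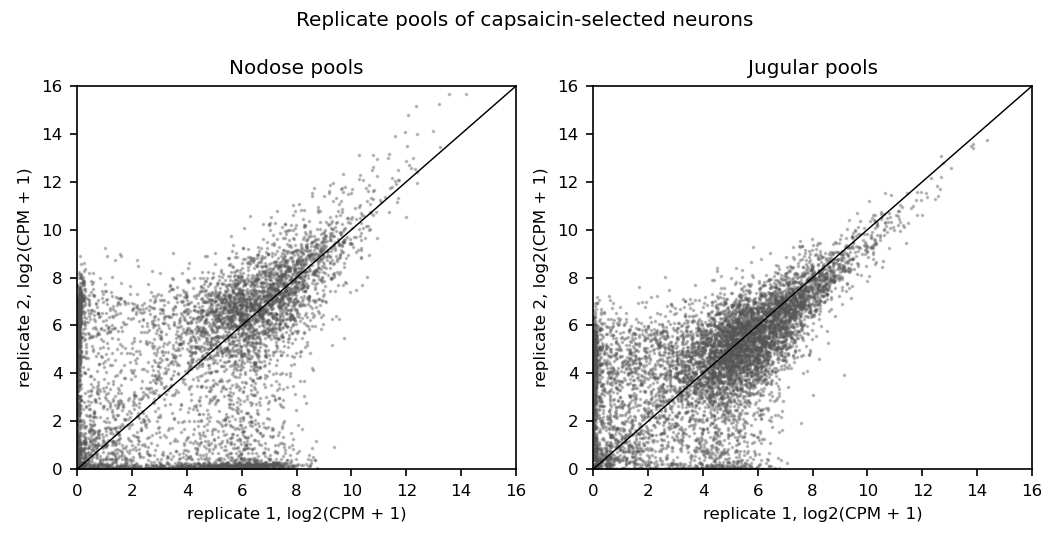
Each point is a gene, with log2(CPM + 1) in replicate 1 (x axis) and replicate 2 (y axis), for nodose (left) and jugular pools (right), and the line marks equal values. Points along the axes are genes seen in 1 pool only, and there are more of them among the nodose pools.

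All 4 pools had the marks of sensory neurons. All 10 neuron identity genes listed were counted in every pool, and their summed level was 9730 and 9210.0 CPM in nodose pools, against 9602 and 7230.0 CPM in jugular. Trpv1, the capsaicin receptor, was at 190.4 and 173 CPM in nodose pools, against 206 and 66.4 CPM in jugular, so the groups overlapped (log2 fold change jugular over nodose -0.32, SE 0.85, edgeR adjusted p = 0.9999). Peripherin (Prph), an intermediate filament of small neurons, was at 482 and 703 CPM in nodose pools, against 589 and 809.5 CPM in jugular. Snap25 was apart toward nodose and Scn11a and Calca toward jugular, by the rule given below. Markers of other cells were lower but present: satellite glia and Schwann cell markers summed to 1757 and 1714 CPM in nodose pools, against 1617 and 1828 CPM in jugular, with 5 of the 21 genes at 0 in all 4 pools. Macrophage and blood cell markers summed to 68.4 and 1.88 CPM in nodose pools, against 17.8 and 0.118 CPM in jugular, and 15 of the 17 genes, Csf1r, Ptprc and Aif1 among them, had no count in any pool. Fibroblast, vascular and muscle markers reached 231 and 69.2 CPM in the jugular pools against 34.3 and 0 CPM in nodose, with 11 of 16 genes at 0 in all 4 pools. The proteoglycan gene Dcn of that list was at 34.3 and 0 CPM in nodose pools, against 221 and 15.96 CPM in jugular. The part of these cells in the results below was not tested. In pools, fewer cells of a type and less RNA per cell cannot be told apart.

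The widest gaps between jugular and nodose capsaicin-responding neurons were in genes present in both pools of a ganglion and nearly absent from the other. Jugular pools alone held high levels of Tac1, Gna14, Grik1, Plxnc1 and Mrgprd, and nodose pools alone held high levels of Hoxb5, Cckar, P2rx2, Th and Vip. By a rule of order and size, with CPM of at least 10 in both pools of a group and the lowest of them at least 2 times the highest of the other group, 893 genes had their high values in jugular pools and 454 had them in nodose, which is 10.9% and 5.55% of the 8181 genes tested. Under 1 CPM in both pools of the other ganglion were 572 of the 893 and 90 of the 454. At the other end, 2352 genes were at 10 CPM or more in all 4 pools, and the group means of 1556 of these lay within 2-fold.

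No single gene passed the threshold of the main test. edgeR's quasi-likelihood test with Benjamini-Hochberg adjustment gave 0 of 8181 genes (0.0%) in each direction an adjusted p of at most 0.1, and its smallest adjusted p, 0.155, was shared by 10 genes. At an unadjusted p under 0.05 it gave 1150 genes, of which 556 (6.8%) were higher in jugular and 175 (2.14%) in nodose pools at a fold change of at least 2 and 10 CPM in both pools. DESeq2 called 604 genes (5.58% of 10822) higher in jugular and 103 (0.952%) higher in nodose pools, and every one of them met the rule of order and size. With 2 pools on each side, exact permutation has a smallest two-sided p of 0.33. Differences below are therefore described by their values, and "apart" stands for the rule of order and size.

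The share of genes apart toward jugular moved with the pools and the scaling, and among the settings run it was under 50% only without nodose replicate 2. Jugular genes were 66.3% of those apart, 78.6% when CPM were scaled by total count and 59.0% at a minimum of 20 CPM. With a single nodose pool left, the share was 52.2% (without nodose replicate 1) or 45.4% (without nodose replicate 2), against 71.1% and 71.3% without a jugular pool. The median log2 fold change over genes at 10 CPM was -0.01 in the main scaling, -0.11 with DESeq2's size factors and 0.27 with upper quartile factors.

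**Figure D2:**
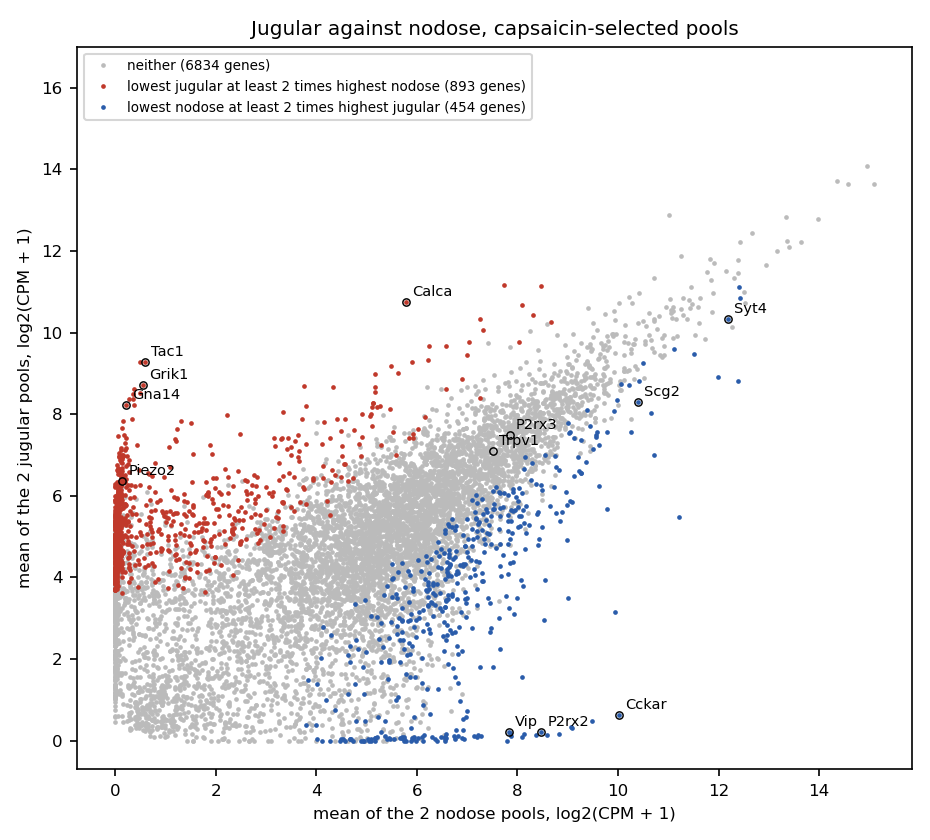
Each point is 1 of the 8181 genes tested, placed by the mean of the 2 nodose pools (x axis) and of the 2 jugular pools (y axis), both as log2(CPM + 1). Red points are the 893 genes apart toward jugular and blue points the 454 apart toward nodose, and many of both lie along an axis, near 0 in the other ganglion.

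Among the genes apart toward jugular, the 12 with the smallest unadjusted p had log2 fold changes between 9.93 and 12.08. Ctxn3, which encodes a small neuronal membrane protein, was at 0.447 and 0.367 CPM in nodose pools, against 623 and 613 CPM in jugular, where the replicates nearly coincided. Its log2 fold change was 10.67 (SE 0.84, edgeR adjusted p = 0.155), and the adjusted p over the alternatives ran from 1.93e-10 to 0.177. Gna14 (chr19:16435762-16610820), a Gq-class G protein subunit, had 0.149 and 0.163 CPM in nodose pools, against 317 and 275 CPM in jugular (1898-fold by the means). No other of the 11 Gα subunits tested was apart toward jugular, and Gnaq, of the same class, overlapped at 360.0 and 491 against 481 and 543 CPM. Plxnc1 (chr10:94790866-94944835), the plexin that binds semaphorin 7A, stood at 0.298 and 0.286 CPM in nodose pools, against 210.2 and 571 CPM in jugular. Grik1 (chr16:87895900-88290265), the kainate receptor subunit GluK1, was at 0.149 and 0.776 CPM in nodose pools, against 195 and 640.2 CPM in jugular (log2 fold change 9.94, SE 1.55, edgeR adjusted p = 0.352). Acpp (chr9:104288251-104337748), an ectonucleotidase that turns AMP into adenosine, had 0.149 and 0.367 CPM in nodose pools, against 199 and 274 CPM in jugular.

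Pla2g7 (chr17:43568098-43612201), whose secreted product inactivates platelet-activating factor, was at 0.223 and 0.204 CPM in nodose pools, against 296 and 367 CPM in jugular. Serpina3g (chr12:104236245-104241939), a serine protease inhibitor, was at 0.0372 and 0.163 against 229 and 172 CPM, and as a member of a cluster of near-identical genes its counts are uncertain. Phf20 (chr2:156196466-156309952), part of a histone acetyltransferase complex, had 0.0372 and 0.204 CPM in nodose pools, against 224 and 226 CPM in jugular. Sh3bgrl2 had 0.298 and 0.245 against 289 and 432 CPM, Tmem255a had 0.149 and 0.408 against 288 and 373 CPM, and the predicted gene Gm765 had 1 and 1 counts in nodose against 193 and 159 CPM in jugular pools. The nodose values of these 6 genes were all under 1 CPM and the jugular values all over 150 CPM. Tac1, the remaining gene of the 12, is given with the peptides.

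The corresponding nodose genes included 5 receptors. Cckar (chr5:53697776-53707705), the receptor through which cholecystokinin from the gut acts on vagal fibers, was at 1595 and 490.3 CPM in nodose pools, against 0.689 and 0.392 CPM in jugular (log2 fold change -10.79, SE 1.13, edgeR adjusted p = 0.155). P2rx2 (chr5:110339812-110343212), a subunit of ATP-gated channels, had 327 and 383 against 0.218 and 0.0784 CPM, and the response of such channels was itself a criterion of the selection. F2r (chr13:95601803-95618487), the thrombin receptor PAR1, was at 501 and 402 CPM in nodose, with 5 and 1 counts in the jugular pools. Ptgir (chr7:16906490-16910905), the prostacyclin receptor, had 265 and 297 CPM in the nodose and 3 and 3 counts in the jugular pools, and S1pr3 (chr13:51408639-51422797), a sphingosine-1-phosphate receptor, had 226 and 542 CPM and 4 and 1 counts. All 5 receptors were over 200 CPM in both nodose pools and under 1 CPM in both jugular pools.

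Th (chr7:142892752-142931128), the rate-limiting enzyme of catecholamine synthesis, was at 596 and 479 CPM in nodose pools, against 0.363 and 0.157 CPM in jugular (log2 fold change -10.88, SE 1.03, edgeR adjusted p = 0.155). Over the alternatives its adjusted p ran from 1.38e-09 to 0.177. Ccdc80, a matrix-associated protein, had 302 and 775 against 0.218 and 0.274 CPM, and Myl1, a myosin light chain best known from fast muscle, had 188 and 276 against 0.0725 and 0.0784 CPM. Cyp1b1, a cytochrome P450, was at 247 and 194 CPM in nodose with 0 counts in both jugular pools, and was at least 1651-fold higher, taking the lower nodose pool against 3 counts in a jugular pool. Vip, also among these genes, is given with the peptides.

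**Figure D3:**
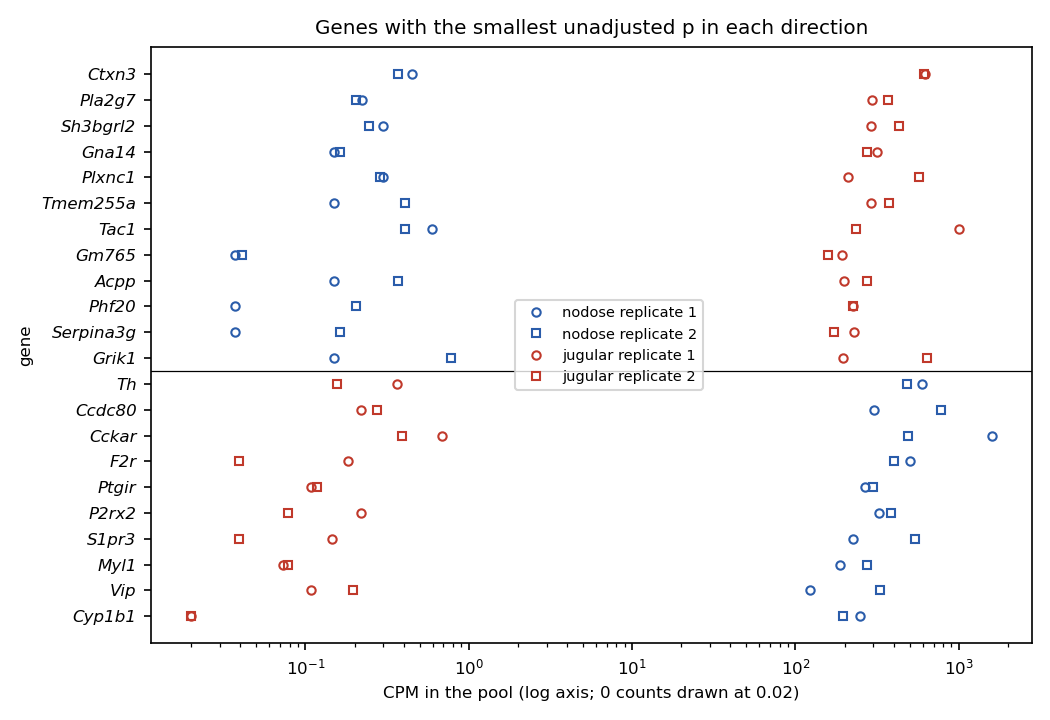
CPM in each pool (log axis, with 0 counts drawn at 0.02) for the genes reported among the 12 per direction with the smallest unadjusted p, blue for nodose and red for jugular, circles for replicate 1 and squares for replicate 2. In each row the 2 pools of the low group lie under 1 CPM and the 2 pools of the high group over 100 CPM.

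Neuropeptides and their processing enzymes were split between the ganglia. Of 24 genes listed, 17 passed the filter on counts, 4 were apart toward jugular and 6 toward nodose (median log2 fold change of those tested -0.98, against 0.02 over all 8181 genes). These were 23.5% and 35.3% of those tested, against 10.9% and 5.55% over all genes tested. Tac1 (chr6:7554879-7565834), the precursor of substance P and neurokinin A, was at 0.595 and 0.408 CPM in nodose pools, against 998 and 234 CPM in jugular (1227-fold by the means, log2 fold change 10.34, SE 1.23, edgeR adjusted p = 0.162). Calca, which encodes calcitonin and the peptide CGRP, had 106 and 1.63 CPM in nodose pools, against 2727 and 697 CPM in jugular, and Calcb, its close relative, had 1.60 and 422 against 1875 and 2758 CPM. Both were apart toward jugular, but the nodose replicates differed widely, with the first pool high for Calca and the second for Calcb. Reads shared between these relatives make their split uncertain. Pcsk2, a convertase that cuts prohormones, was at 42.5 and 0.204 CPM in nodose pools, against 158 and 224 CPM in jugular.

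Vip (chr10:5639218-5647617), vasoactive intestinal peptide, was at 124 and 328 CPM in nodose pools, against 0.109 and 0.196 CPM in jugular. Adcyap1, which encodes the related peptide PACAP, had 475 and 611 CPM in nodose pools, against 95.6 and 17.8 CPM in jugular, and Uts2b, a urotensin II-related peptide, had 119 and 70.9 against 0.109 and 0.118 CPM. Secretogranin II (Scg2), a protein of dense-core vesicles, was at 1646 and 1036 CPM in nodose pools, against 390.4 and 235 CPM in jugular, 4.29-fold apart by the means. Pcsk1, the other main prohormone convertase, had 304 and 369.9 CPM in nodose pools, against 53.3 and 0.196 CPM in jugular, so the 2 convertases were highest in opposite ganglia. Peptide genes that were not apart included Gal at 43.95 and 66.05 against 116 and 32.6 CPM and Bdnf at 211 and 643 against 374 and 37.1 CPM, both with overlapping groups.

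The promoters of the peptide genes and of Th are shown because several hold the cyclic AMP response element, the site bound by CREB-family factors, whose letters are TGACGTCA. It was searched on both strands in the 250 bases before the RefSeq start site (GRCm38.p6), together with its core TGACGT, which every full element also contains. The full element lay 45 bases before the start in Th, 78 in Pcsk1 and 68 in Scg2, and the core alone lay 79 bases before the start in Vip. Stretches are printed 5′ to 3′ along the gene, and capitals mark the full element, or in Vip its core. Pcsk1 also holds a separate core nearer the start, left in lower case. They hold no base of a GENCODE vM21 exon, except at Scg2, where the element lies in an annotated exon and only 30 bases around it are printed. The Th stretch lies within the span that GENCODE gives to Th, outside its exons. Th and Scg2 lie on the minus strand (chr7:142900015-142900245 and chr1:79440076-79440105) and Pcsk1 and Vip on the plus strand (chr13:75089607-75089825 and chr10:5638968-5639217).
Th: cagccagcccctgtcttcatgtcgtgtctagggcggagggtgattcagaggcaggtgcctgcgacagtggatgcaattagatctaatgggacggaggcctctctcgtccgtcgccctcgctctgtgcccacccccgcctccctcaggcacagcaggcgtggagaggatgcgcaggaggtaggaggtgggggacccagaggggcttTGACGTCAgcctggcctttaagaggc
Pcsk1: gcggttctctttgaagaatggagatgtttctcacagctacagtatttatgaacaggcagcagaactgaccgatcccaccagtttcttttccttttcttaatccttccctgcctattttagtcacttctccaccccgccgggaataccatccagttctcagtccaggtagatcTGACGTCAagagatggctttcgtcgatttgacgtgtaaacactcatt
Scg2: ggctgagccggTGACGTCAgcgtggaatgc
Vip: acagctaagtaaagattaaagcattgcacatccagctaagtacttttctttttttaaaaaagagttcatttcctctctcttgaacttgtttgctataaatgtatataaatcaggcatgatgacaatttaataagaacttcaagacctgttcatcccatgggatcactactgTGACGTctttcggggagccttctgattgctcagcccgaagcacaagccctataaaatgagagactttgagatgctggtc

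Among the other peptide genes apart toward nodose, Chgb, the dense-core vesicle protein chromogranin B, held the full element too (chosen after its values were seen), Adcyap1 held the core and Uts2b held neither. Of those apart toward jugular, Tac1, Calca and Pcsk2 held neither, and Calcb was not searched. The full element was found in 1.55% of 32851 mouse promoters, in 2.88% of 8122 promoters of genes tested, in 2.03% of 936 promoters of genes apart toward jugular and in 4.69% of 426 promoters of genes apart toward nodose. The core was found in 6.47%, 10.7%, 8.44% and 13.6% of the same promoters. A match is a description of these letters and not of binding.

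Receptors for neurotrophic factors were apart in both directions. Of 16 listed, 9 passed the filter on counts, 5 were apart toward jugular and 1 toward nodose (median log2 fold change of those tested 3.86). Over all genes tested, the shares apart were 10.9% and 5.55%. The receptors for the GDNF family named here were on the jugular side: Gfra3, the artemin co-receptor, was at 0.186 and 0.245 CPM in nodose pools, against 186 and 47.5 CPM in jugular. Gfra2, the neurturin co-receptor, had 0.0744 and 1.10 against 10.6 and 136 CPM, and Gfra1, that of GDNF, had 0.112 and 2.57 against 38.4 and 82.2 CPM. Ret, the kinase they share, was at 0.0372 and 33.4 CPM in nodose pools, against 160.2 and 287 CPM in jugular, and was the least apart of these, with 1 nodose pool over 30 CPM. Ntrk2 (chr13:58806569-59133970), the BDNF receptor TrkB, went the other way, with 249 and 28.05 CPM in the nodose and 1 and 3 counts in the jugular pools, although its nodose replicates were far apart. Lifr, the receptor of leukemia inhibitory factor, was high in all pools, at 809 and 1682 against 1066 and 2337 CPM.

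Channels of the TRP, Piezo and acid-sensing families included genes apart in both directions, 3 toward jugular and 2 toward nodose of 13 tested (22 listed, median -0.32). These were 23.1% and 15.4% of those tested, against 10.9% and 5.55% over all genes tested. Piezo2, the mechanically gated channel of touch and lung stretch neurons, was at 0.0372 and 0.163 CPM in nodose pools, against 85.2 and 77.05 CPM in jugular (809-fold by the means). Trpc6, a diacylglycerol-gated channel, had 0 and 1 counts against 33.1 and 115 CPM. Trpc4, of another TRPC subgroup, was at 46.2 and 143 CPM in the nodose and 1 and 1 counts in the jugular pools. TRPC genes were therefore apart in both directions. Trpv2, a close relative of Trpv1, was at 400.5 and 307 CPM in nodose pools, against 88.96 and 63.9 CPM in jugular, 4.63-fold apart by the means. Trpa1, the irritant receptor, was at 0.112 and 375 CPM in nodose pools, against 149.6 and 52.03 CPM in jugular, so that the nodose replicates enclosed the jugular ones (named after its values were seen).

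Among voltage-gated sodium and potassium channels, the shares of genes apart were near those of all genes tested (10.9% toward jugular and 5.55% toward nodose): 12.5% each way for sodium, and 12.5% and 8.33% for potassium and HCN channels. Of 8 sodium channel genes tested (14 listed, median 0.64), Scn11a, the persistent current channel of nociceptors, was at 24.7 and 0.327 CPM in nodose pools, against 196 and 632 CPM in jugular, and the auxiliary subunit gene Scn3b was at 328 and 141 against 40.2 and 40.5 CPM. Scn10a, the tetrodotoxin-resistant channel of the same neurons, had 96.95 and 106 CPM in nodose pools, against 55.1 and 618 CPM in jugular, where the jugular replicates enclosed the nodose ones. Among 24 potassium and HCN channel genes tested (51 listed, median 1.84), 3 were apart toward jugular and 2 toward nodose. Kcnip2, a subunit of A-type channels, was at 0 and 0.122 CPM in nodose pools, against 42.3 and 189 CPM in jugular, Kcnd1, a pore subunit of such channels, had 42.3 and 2.69 against 84.9 and 133 CPM, and Kcna2, a delayed rectifier, had 0.409 and 1.59 against 36.5 and 58.3 CPM. Toward nodose, Kcnmb2, a subunit of BK channels, was at 106 and 79.6 against 17.3 and 11.6 CPM, and Kcnk3, an acid-sensitive leak channel, at 14.96 and 15.02 against 0.508 and 0.0784 CPM. Calcium channels had 2 genes apart toward jugular of 7 tested (15 listed, median -0.52). These were Cacna1c, an L-type pore subunit with 0 counts in nodose, against 29.7 and 31.4 CPM in jugular pools (at least 243-fold higher), and Cacna2d1, the gabapentin-binding subunit, at 55.7 and 0.163 against 141 and 164 CPM.

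Among ligand-gated receptors, subunits of a family went in different directions. P2rx2 was the gene apart of 6 purinergic receptors tested (18 listed, median -0.92), whereas P2rx3, the partner subunit of nociceptors, was at 177 and 282 CPM in nodose pools, against 146 and 209.6 CPM in jugular. P2rx3 did not separate the groups (log2 fold change -0.25, SE 0.70, edgeR adjusted p = 0.9999), and its sign was turned by upper quartile scaling (0.06) and by leaving out nodose replicate 2 (0.13). The adenosine receptor gene Adora1 had 16.6 and 125 CPM in nodose pools, against 31.01 and 51.2 CPM in jugular, also with overlap, and its log2 fold change of -0.66 became 1.43 without nodose replicate 2. Among 14 other transmitter receptors tested (35 listed, median 0.04), 3 were apart toward each ganglion. That was 21.4% each way, against 10.9% toward jugular and 5.55% toward nodose over all genes tested. Nicotinic subunits went both ways: Chrna3 and Chrnb4, which form the ganglionic receptor, were at 306 and 257 against 0.363 and 49.5 CPM and at 232 and 78.6 against 0.109 and 28.00 CPM. Chrna6, another nicotinic subunit, was at 1 and 1 counts in nodose pools, against 41.02 and 142 CPM in jugular. Htr3a, the serotonin-gated channel, had 162 and 239 CPM in nodose pools, against 36.4 and 0.196 CPM in jugular, and the AMPA receptor subunit Gria2 had 1 and 0 counts against 19.3 and 12.5 CPM. Beside Grik1, the glutamate receptor genes apart toward jugular included the metabotropic Grm7, with 0 counts in nodose, against 74.3 and 71.5 CPM in jugular pools (at least 584-fold higher).

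Receptors for gut hormones and lipid mediators included several of the widest gaps given above. For comparison with the counts that follow, 10.9% of all genes tested were apart toward jugular and 5.55% toward nodose. Few gut hormone and metabolic receptors were counted, with 17 of 26 at 0 in all pools and 4 tested (median -5.62), and those apart were Cckar and Npy2r. Npy2r, the receptor for peptide YY, was at 60.5 and 102 CPM in the nodose and 0 and 1 counts in the jugular pools. Of 10 lipid mediator and protease receptors tested (31 listed, median -1.45), 3 were apart toward nodose, namely F2r, S1pr3 and Ptgir described above, and 2 toward jugular. The latter were Lpar3, a lysophosphatidic acid receptor at 0 and 1 counts in nodose pools, against 41.9 and 71.3 CPM in jugular, and S1pr2 at 1 and 2 counts against 39.1 and 12.9 CPM. S1pr2 and S1pr3, receptors for the same lipid, were thus apart in opposite directions, and Lpar1 was at 48.8 and 353 CPM in nodose pools, against 36.3 and 31.7 CPM in jugular without meeting the rule. Ptgdr, the prostaglandin D2 receptor, was counted in the jugular pools only (5 and 1427 counts), nearly all in replicate 2. F2rl1, which encodes PAR2, was not counted in these pools.

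Of 10 kinin, tachykinin, opioid, cannabinoid and monoamine receptors tested (43 listed, median 0.90), 3 were apart toward jugular and 1 toward nodose. Across all genes tested, 10.9% were apart toward jugular and 5.55% toward nodose. Agtr1a, an angiotensin II receptor, was at 0.0744 and 0.163 CPM in nodose pools, against 84.2 and 93.2 CPM in jugular (746-fold by the means), and Gabbr2, a subunit of the GABA-B receptor, had 0 counts in nodose, against 13.9 and 34.2 CPM in jugular pools. Grm7, given above, is the remaining jugular gene. Cnr1, the cannabinoid receptor CB1, was found in all pools and was higher in nodose, at 401 and 508 against 84.8 and 110.1 CPM. Itch receptors of the Mas-related family appeared in jugular pools: Mrgprd, the β-alanine receptor, was at 0.223 and 0.367 CPM in nodose pools, against 85.8 and 515 CPM in jugular (1018-fold by the means, log2 fold change 10.11, SE 1.59, edgeR adjusted p = 0.352). Mrgpra3, the chloroquine receptor, had 0 and 1 counts in nodose pools, against 17.04 and 88.5 CPM in jugular, and belongs to a family of similar genes whose reads can be shared. These were 2 of 3 tested (13 listed, median 10.1), or 66.7% toward jugular and 0.0% toward nodose.

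Receptors for cytokines, interferons and chemokines and the toll-like receptors were sparse, with 29 of the 56 genes found in the files at 0 in all pools, 11 tested (median 0.72) and 1 apart toward each ganglion. That was 9.09% each way, against 10.9% toward jugular and 5.55% toward nodose over all genes tested. Il13ra1, a subunit of the receptors for interleukins 4 and 13, was at 0 and 0.122 CPM in nodose pools, against 22.5 and 51.7 CPM in jugular. Its partner Il4ra had 0 counts in nodose and 2 and 407 counts in the jugular pools, so it rests on replicate 2. Il1r1, the interleukin 1 receptor, had 134 and 111 CPM in nodose pools, against 52.7 and 0 CPM in jugular. Ifnar1, a subunit of the type I interferon receptor, was abundant in every pool, at 103 and 444 CPM in nodose pools, against 432 and 401 CPM in jugular, whereas its partner Ifnar2 was counted in jugular replicate 2 alone (112 counts). The interferon γ receptor genes were low, with Ifngr1 at 1.04 and 0 against 7.62 and 19.7 CPM and Ifngr2 at 3.16 and 5.84 against 27.9 and 9.72 CPM. Cxcr2, a chemokine receptor, was at 8.45 and 15.2 CPM in nodose pools, against 6.42 and 6.35 CPM in jugular, with close but not overlapping values.

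**Figure D4:**
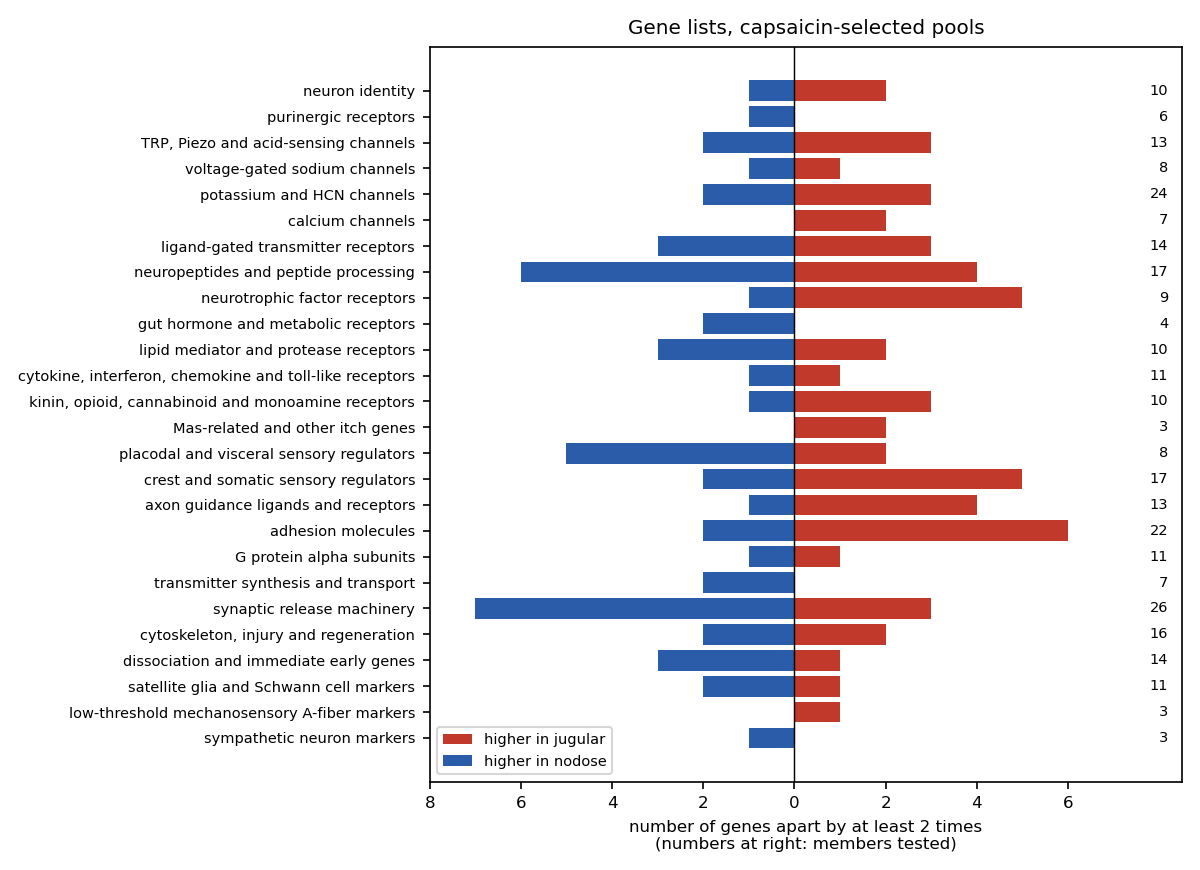
Number of genes of each list that were apart toward jugular (red bars, right) or toward nodose (blue bars, left), with the number of members tested at the right edge, for lists with at least 3 members tested. Synaptic release genes (7) and peptide genes (6) have the longest nodose bars, and adhesion molecules (6) the longest jugular bar.

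Developmental regulators were apart in both directions. Of 8 placodal and visceral regulators tested (29 listed), 5 were apart toward nodose and 2 toward jugular (median log2 fold change -8.23, or -6.97 with groups at 0 counts put at their bound). The shares apart over all genes tested were 5.55% toward nodose and 10.9% toward jugular. Hoxb5 (chr11:96303336-96306121), a Hox gene, was at 372 and 286 CPM in the nodose and 5 and 0 counts in the jugular pools (3630.2-fold by the means). The T-box factor Tbx3 had 27.2 and 160.4 CPM in the nodose and 2 and 1 counts in the jugular pools, and the helix-loop-helix factor Nhlh2 had 15.4 and 37.6 against 0.218 and 0.549 CPM. Eya1, a transcriptional co-activator of placodes, had 41.9 and 17.2 CPM in nodose and 0 counts in both jugular pools (at least 146-fold higher). Six4, itself a placodal factor, went against the list, with 0 counts in nodose, against 27.9 and 35.5 CPM in jugular pools, and Ret was the other such gene.

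Regulators of neural crest and somatic sensory neurons numbered 17 tested (35 listed, median 3.54), with 5 apart toward jugular and 2 toward nodose. These were 29.4% and 11.8% of those tested, against 10.9% and 5.55% over all genes tested. Pou4f1, the Brn3a factor of somatic sensory neurons, was at 86.8 and 454 CPM in nodose pools, against 1800.5 and 1467 CPM in jugular, so it was present in all pools and 6.04-fold higher in jugular by the means. Prdm12, which is required for nociceptor development, had 0 and 1 counts in nodose pools, against 20.6 and 30.7 CPM in jugular. Cited1, a transcriptional co-activator, had 1 and 1 counts against 23.6 and 12.8 CPM, and the homeobox gene Meis1 had 1 and 1 counts against 25.3 and 50.5 CPM. Tox3 had 0 counts in nodose, against 36.2 and 13.1 CPM in jugular pools. Tshz1, a zinc finger factor, narrowly missed the minimum, at 0.149 and 0 against 9.83 and 33.8 CPM, and so did the predicted gene Gm13157 at 0.372 and 0 against 9.54 and 9.57 CPM. Toward nodose, Etv1, an ETS factor, was at 661 and 279 against 0.326 and 94.6 CPM and Zeb2, a repressor active in crest cells, at 54.3 and 61.1 against 0.0725 and 15.2 CPM. Both were under 1 CPM in the first jugular pool and well over it in the second.

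Surface molecules were apart in both directions. Of 13 axon guidance genes tested (42 listed, median -1.18), 4 were apart toward jugular and 1 toward nodose (30.8% and 7.69%, against 10.9% and 5.55% over all genes tested). With Plxnc1 came Nrp1, a co-receptor for class 3 semaphorins, at 1 and 2 counts in nodose pools, against 90.05 and 69.8 CPM in jugular, Robo2, a Slit receptor, at 0.0744 and 5.31 against 219 and 83.2 CPM, and Sema6d at 19.9 and 0.163 against 55.4 and 131 CPM. Unc5d, a netrin receptor, was at 25.9 and 38.3 CPM in nodose and 0 counts in jugular pools (at least 220.2-fold higher). Among 22 adhesion molecules tested (42 listed, median 0.32), 6 were apart toward jugular and 2 toward nodose (27.3% and 9.09%). Cdh1, which encodes E-cadherin, was at 2.46 and 0.122 CPM in nodose pools, against 88.2 and 248 CPM in jugular (130.2-fold by the means), and Nrxn3, a neurexin, had 0 and 1 counts against 94.00 and 101 CPM. Of the contactin and contactin-associated families, Cntn2 was at 1.23 and 0.0408 against 30.6 and 65.4 CPM, Cntnap2 at 1.56 and 3.22 against 54.3 and 30.7 CPM and Cntnap4 at 0 and 12.5 against 35.6 and 33.9 CPM. Toward nodose, Flrt3, a fibronectin-leucine-rich repeat protein, was at 594 and 921 against 139 and 217 CPM and the neural adhesion molecule Ncam2 at 101 and 33.4 against 0.0363 and 3.29 CPM.

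Genes of transmitter release and storage were apart in both directions. Of 26 synaptic genes tested (31 listed, median -0.40), 7 were apart toward nodose and 3 toward jugular (26.9% and 11.5%, against 5.55% and 10.9% over all genes tested). Syt4, a synaptotagmin of dense-core vesicles, was at 5346 and 4001 CPM in nodose pools, against 1294 and 1265 CPM in jugular (3.65-fold by the means, log2 fold change -1.75, SE 0.42, edgeR adjusted p = 0.352). Snap25, a SNARE protein, had 5149 and 5925 CPM in nodose pools, against 2568 and 1098 CPM in jugular, and Cplx1, a complexin, had 593 and 462 against 144 and 229.5 CPM. Rab3b, a vesicle GTPase, was at 160.0 and 329 CPM in nodose pools, against 15.2 and 0.0392 CPM in jugular, while its relative Rab3a overlapped at 316 and 271 against 253 and 267 CPM. Apart toward jugular were Cplx2 at 2.01 and 8.16 against 28.2 and 30.9 CPM, Syt9 at 0.0372 and 3.84 against 115 and 142 CPM and the synapsin Syn1 at 2.49 and 0.694 against 33.9 and 81.2 CPM. Of 7 genes of transmitter synthesis and transport tested (22 listed, median -2.09), 2 were apart, both toward nodose. With Th, these comprised Slc18a2, the vesicular monoamine transporter VMAT2, at 291 and 429 CPM in nodose pools, against 32.2 and 41.4 CPM in jugular (9.79-fold by the means). Of the 3 sympathetic markers tested (8 listed, median -3.72) Th was the gene apart. Dbh, Npy, Gata2 and Hand1 were not counted in these 4 pools, and Gata3 was at 0 and 33.2 against 2.36 and 0.0392 CPM. Slc17a6, the vesicular glutamate transporter VGLUT2, was found in all pools at 1003 and 694 CPM in nodose pools, against 237 and 504 CPM in jugular. The Gα list (11 tested, 14 listed, median 0.39) had Gnas, which couples receptors to cyclic AMP, apart toward nodose at 1331 and 1554 against 596 and 624 CPM.

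Genes tied to injury, dissociation and other cell types were apart in both directions. Of 16 cytoskeletal, injury and regeneration genes tested (18 listed, median 0.25), 2 were apart toward each ganglion. That was 12.5% each way, against 10.9% toward jugular and 5.55% toward nodose over all genes tested. Atf3, a marker of injured sensory neurons, was at 672 and 562 CPM in nodose pools, against 174 and 156 CPM in jugular, so all pools held it. Mapt, which encodes tau, had 216 and 341 against 101 and 98.5 CPM, and α-internexin (Ina) had 0 counts in nodose, against 22.4 and 24.7 CPM in jugular pools. Cacna2d1 is the remaining gene of that list apart toward jugular. Of 14 dissociation and immediate early genes tested (21 listed, median -1.10), 3 were apart toward nodose and 1 toward jugular (21.4% and 7.14%). Toward nodose were Atf3 again, the stress factor Ddit3 at 177 and 167 against 12.5 and 52.3 CPM and Fosb at 29.5 and 36.5 against 14.4 and 0.196 CPM. The phosphatase gene Dusp1 was at 1.49 and 1.22 CPM in nodose pools, against 28.8 and 89.4 CPM in jugular, while Fos overlapped at 275 and 25.4 against 55.2 and 261 CPM. Glial markers gave Glul at 93.2 and 138 against 23.5 and 13.8 CPM toward nodose, and Cnp at 0.409 and 1.22 against 13.9 and 57.1 CPM toward jugular. Of the 11 tested (median -0.997), 18.2% were apart toward nodose and 9.09% toward jugular. Neither the macrophage nor the fibroblast list had a gene apart, with 2 tested in each (medians -1.40 and 7.48). Piezo2 was the gene apart of 3 markers of low-threshold mechanosensory A-fibers tested (12 listed, median 9.17), and the list summed to 0.335 and 398 CPM in nodose pools, against 183 and 171 CPM in jugular. Nefh, a neurofilament of large neurons, was at 0.149 and 206 against 53.3 and 93.6 CPM, Spp1 at 0.0372 and 192 against 0.181 and 0.0784 CPM, and Pvalb had counts in the first jugular pool alone (16.8 and 0 CPM). The ribosomal RNA gene Rn45s took 0.0143% to 0.137% of the counts and was at 1144 and 179.8 CPM in nodose pools, against 180.2 and 500.1 CPM in jugular.

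The Trpv1-tdTomato-positive pools offered a comparison with no pool in common. They came from mice in which Cre expressed from Trpv1 turns on tdTomato, so cells that once expressed Trpv1 are also red. They came from 2 mice, and no agonist was used to choose them. They differ from the capsaicin-responding pools also in strain, sequencing core, cells per pool (30) and total count (153686267 to 167704327), and the selection cannot be told apart from these. CPM were scaled within each selection. Of the 893 genes apart toward jugular, 154 were apart the same way in the Trpv1-tdTomato-positive pools (17.2% of the 893 and 22.4% of the 686 genes found there), against 6.22% of all genes tested. Of the 454 genes apart toward nodose, 87 were (19.2% of the 454 and 14.9% of the 585 found there), against 5.52% of all genes tested. Genes apart had to reach 10 CPM in both pools of a group, as 5017 genes did, whereas the 8181 genes tested include lower ones. The shares are therefore not of genes of like level, and the part of this filter was not tested. The sign of the difference of means was the same for 564 of the 893 and opposite for 323, and the same for 320 of the 454 and opposite for 129.

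Several of the genes given above recurred. Tac1 was at 0.971 and 0.248 CPM in Trpv1-tdTomato-positive pools from nodose, against 1075 and 843 CPM from jugular, Gna14 at 0.0586 and 0.0382 against 150.2 and 191 CPM, and Mrgprd at 0.0391 and 0.00637 against 72.7 and 119 CPM. Piezo2 repeated with 0.0130 and 0.0255 against 55.1 and 100.5 CPM and Prdm12 with 0.241 and 0.0382 against 172 and 186 CPM. On the nodose side P2rx2 had 451 and 317 against 0.0915 and 0.0661 CPM, Cckar 46.00 and 161 against 0.0215 and 0.0102 CPM and Vip 113 and 131 against 0.0108 and 0.0254 CPM. These 8 genes kept the order of the ganglia with no overlap in either selection.

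Other genes differed between the selections. Th, under 1 CPM in the capsaicin-responding jugular pools, was in all Trpv1-tdTomato-positive pools, at 148 and 75.4 against 54.4 and 131 CPM. Ctxn3 was at 117 and 49.7 against 314 and 462 CPM there, still higher in jugular but well above the floor in both ganglia. Stx2, a syntaxin, had 1 and 3 counts in nodose and 97.7 and 87.8 CPM in jugular capsaicin-responding pools, and in the other selection it was at 202 and 164 against 88.4 and 99.6 CPM, with the order turned. Nrg1, a ligand of ErbB receptors, was in all 4 capsaicin-responding pools, at 141 and 876 against 302 and 141 CPM, and was at 0.0261 and 0.00637 against 32.2 and 55.2 CPM in the Trpv1-tdTomato-positive pools. Cntn1, a contactin, likewise had 82.2 and 274 against 315 and 292 CPM in the former and 0.0912 and 0.0637 against 94.3 and 148 CPM in the latter. These 5 genes had the smallest p of the test of the difference itself, the interaction of ganglion and selection in edgeR's quasi-likelihood test. It called 0 of 11959 genes (0.0%) at an adjusted p of at most 0.1, with a smallest adjusted p of 0.104 for Ctxn3 (log2 interaction 8.51, SE 1.01) and Th (log2 interaction -10.57, SE 1.32). It gave 1233 genes (10.3%) an unadjusted p under 0.05, and DESeq2 called 2520.

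**Figure D5:**
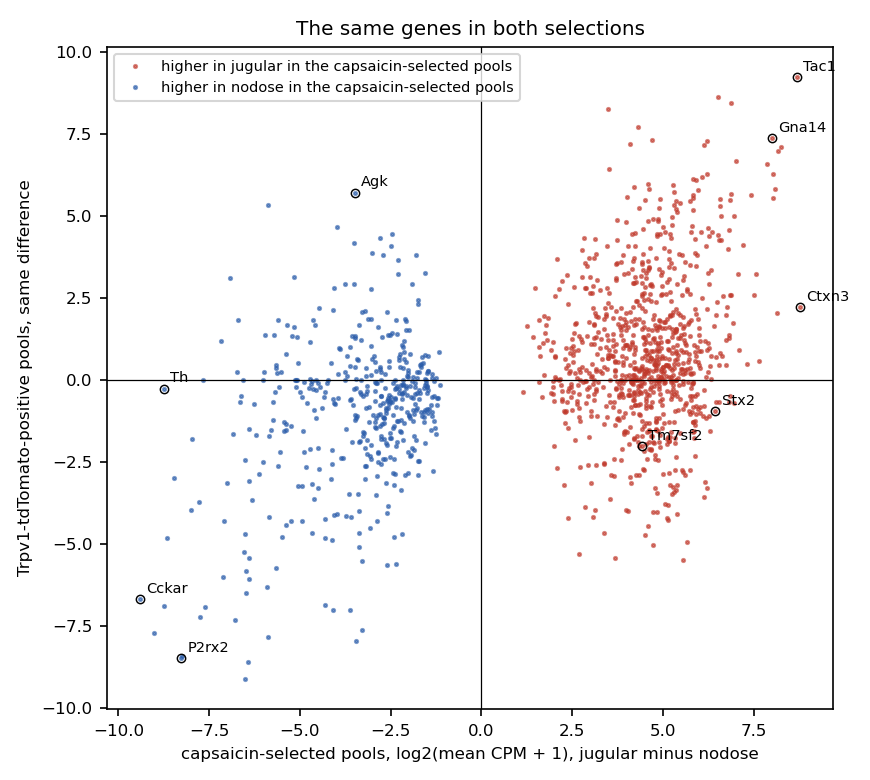
Difference of jugular minus nodose in log2(mean CPM + 1) for the 893 (red) and 454 (blue) genes apart in the capsaicin-responding pools, with those pools on the x axis and the Trpv1-tdTomato-positive pools on the y axis. The x axis chose the genes, so only the y axis is informative, and genes such as Tac1, Gna14, P2rx2 and Cckar lie far from 0 on both while Th lies near 0 on the y axis.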

How the data were processed

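The authors made cDNA from lysed cells with a SMARTer ultra-low input kit, amplified it by PCR, aligned reads to mm10 with TopHat2 2.0.9 and Bowtie2 2.1.0.0 and counted reads per gene with HTSeq, whose version, strand setting and annotation are not given in the sources used here. The deposited values are raw counts per gene. PCR copies were not separated by molecular identifiers, and reads of a gene and of its antisense partner cannot be told apart. In 27 rows a date stood in place of the symbol, and these could not be matched to the lists.

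CPM were computed as counts over DESeq2 size factors of the 4 pools, put on a scale of counts per 1000000. Jugular was tested against nodose with edgeR 4.0.16 (TMM factors, filterByExpr, glmQLFit and glmQLFTest) in R 4.3.3, with Benjamini-Hochberg adjustment over all genes tested. A call needed 10 CPM in both pools of a group, a 2-fold change and an adjusted p no higher than 0.1, after the thresholds of the study. The fit was tested on simulated data. DESeq2 1.42.0 and other settings were alternatives. A further edgeR fit over 8 pools tested the interaction of ganglion and selection. Tables and figures were made in Python 3.11.15. Gene positions were from GENCODE vM21 (GRCm38) and promoters from RefSeq (GRCm38.p6).

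Genes named are the 12 per direction with the smallest p among those apart, up to 5 per list and direction with the highest CPM (or the 2 most abundant members where none was apart), the genes the study names, markers of other cell types and the 5 genes with the smallest interaction p. List members not apart that are given for comparison (such as Gnaq, Gal, Bdnf, Lifr, Trpa1, Scn10a, Rab3a, Slc17a6 and Fos) were chosen after their values were seen. Some genes that these rules name are not reported here, but counts and medians include them. The comparison and the gene lists were chosen with earlier results of these data known.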

Additional observations from a re-analysis of the deposited data

Results flagged for a closer look

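Some genes were apart in both selections but in opposite directions. Of the 893 genes apart toward jugular in the capsaicin-responding pools, 27 were apart toward nodose in the Trpv1-tdTomato-positive pools. Of the 454 apart toward nodose in the former, 10 were apart toward jugular in the latter. Over all 8181 genes tested, 5.52% were apart toward nodose in the Trpv1-tdTomato-positive pools and 6.22% toward jugular. Both counts are smaller shares than these. By the rule, every pool of each selection lies on its own side for the 27 and the 10 genes, so this adds nothing to the counts. The interaction test called 0 genes, so the difference between selections was not shown by a test. Agk, a lipid kinase of mitochondria, was at 123 and 123 CPM in the capsaicin-responding nodose pools, against 20.1 and 0.118 CPM in jugular, but was not counted in the Trpv1-tdTomato-positive nodose pools and was at 54.2 and 48.2 CPM in the jugular ones. Cntn2, the axonal contactin given above, had the higher level in jugular among the capsaicin-responding pools and in nodose in the other selection, at 148 and 130 CPM in nodose against 46.6 and 18.7 CPM in jugular pools. Both examples were chosen after their values were seen. The selections also differ in mouse line, sequencing core and depth, and the part of each was not tested.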

How the results depend on the processing

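The number of genes called differed with the test and with the genes tested. Against 0 and 0 genes called higher in jugular and in nodose pools by edgeR's quasi-likelihood test, DESeq2 called 604 and 103, the likelihood ratio test 569 and 118, testing only genes at 10 CPM 479 and 104, no filter 76 and 46, and a fit over all 10 pools 66 and 44. DESeq2's size factors, upper quartile factors and robust empirical Bayes left 0 and 0. Leaving out a pool gave 0 to 14 and 0 to 17, with the lone pool assumed to vary like the other group. With the replicate number as a block there were 9 and 11, although the pools share only a number and no stated pairing: the deviations of same-numbered pools had r = -0.007105 over 5017 genes. Genes apart toward jugular numbered 588 at 20 CPM and 1407 to 2102 without a pool, and genes apart toward nodose 214 at 4 times and 742 to 1722 without a pool. Fewer pools make the rule easier to meet. The interaction had 0 genes, 2520 with DESeq2, 102 with no filter, 7 over all 10 pools, 4 with robust empirical Bayes, 2 with the Trpv1-tdTomato-positive pools thinned, 0 with the replicate block and 0 to 195 without a pool (195 without nodose replicate 1). Among 43 named genes and 554 alternatives, the sign turned in 3, P2rx3 with upper quartile factors (0.063) and without nodose replicate 2, and Adora1 without nodose replicate 2. Over the pools left out, the log2 fold change ran from -0.59 to 0.13 for P2rx3 and from -1.50 to 1.43 for Adora1. The cause was not tested. With 14 to 16 cells in a pool and 1 other pool to compare, a gene counted in 1 pool of a group could not be placed, and genes under the floor of 3 counts could not be told from 0.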

Other observations

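Genes of very high level in a ganglion were rarely at exactly 0 in the other. Of 25 genes at 100 CPM or more in both jugular pools and under 1 CPM in both nodose pools, 25 had at least 1 count in a nodose pool, and the nodose mean was a median of 0.0811% of the jugular mean. Of 17 genes of the same kind toward nodose, 16 had a count in a jugular pool, with a median of 0.0403%. In the Trpv1-tdTomato-positive pools the medians were 0.0375% over 10 genes toward jugular and 0.0246% over 15 genes toward nodose. The source of these counts was not tested.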
